A study of Mus musculus with 4 samples.

Results

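Histone genes code for the proteins around which DNA is wound, and they give 2 kinds of mRNA. The replication-dependent genes, which lie in clusters, are transcribed in S phase, and their mRNA ends in a stem-loop that is bound by SLBP in place of a poly(A) tail. The replication-independent variants lie outside the clusters, are transcribed through the whole cell cycle and give ordinary polyadenylated mRNA. *H2ax*, counted here as a variant, departs from this in that its annotated transcript holds the stem-loop as well. Some clustered genes can also give a longer, polyadenylated mRNA from a signal downstream of the stem-loop, as known from differentiated cells. A library made from polyadenylated RNA therefore samples the classes differently from a library made from total RNA.

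The histone genes were selected by name (H1f, H2ac, H2bc, H3c, H4c, H2az, H2ax, H3f3 and Macroh2a symbols), which gave 86 of the 55356 genes in the deposited table. Of these, 64 were clustered genes, 12 were variants, and 10 were pseudogenes or, in 1 case, an antisense gene. Of the clustered genes, 54 were on chromosome 13 and 10 on chromosome 3. The genes *H2aj*, *H2aw* and *Cenpa* code for histones as well but have names outside this selection.

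RNA was sequenced from immortalized macrophages that had been grown from the bone marrow of *MK2*-KO mice. MK2 is a kinase downstream of p38, encoded by *Mapkapk2*. The cells had been transduced with a retrovirus carrying either *GFP* alone (i*MK2*-KO +*GFP*, here +*GFP* cells) or *MK2* together with *GFP* (i*MK2*-KO +*MK2*, here +*MK2* cells), and were sorted for GFP, so that both lines share the *MK2* deletion and the vector. The labels give the genotype of the latter as wild type. Each line was left untreated (UT) or received IL-1α at 5 ng/mL for 1 h, with 1 library for each of the 4 conditions. Each line is 1 transduced population, and no variation between cultures can be estimated, so that no p-values are given. Values are normalized counts, i.e., read counts divided by a factor per library, and they sum to between 24891906 and 25733071 per library. They are given in the order UT and IL-1α in +*GFP* cells, then UT and IL-1α in +*MK2* cells.

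*Mapkapk2* stood at 561, 1585, 38357 and 38141 normalized counts, so that the lines were as labelled. All 8 macrophage markers examined had a mean of at least 10. *Mertk*, a receptor for dying cells, stood at 421, 364, 1093 and 1168, and *Cd14*, the co-receptor for LPS, at 3652, 8072, 1962 and 2250. Of 8 markers of other cells, 7 were at 0 or 1 in every library, and *S100a8* did not exceed 6. The sources differ on how the RNA was selected. The sample labels name magnetic isolation of poly(A) mRNA and paired reads of 38 bases, whereas the methods describe ribo-depleted total RNA read from 1 end. The UT +*GFP* library stood apart from the other libraries in short RNAs that are made without a poly(A) tail, as detailed after the histone genes. Comparisons that contain it are UT +*GFP* against +*MK2* and IL-1α against UT in +*GFP* cells. The other 2 comparisons do not contain it.

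The ends of the histone transcripts were read from the GENCODE M21 annotation of GRCm38, in which all 86 genes were found by their Ensembl identifiers. The stem-loop was searched on the transcript strand as a run of 16 letters, namely GG, any pair of bases, CTT, any base, T, any base, AG, any pair of bases and CC. It was found in an annotated transcript of 43 of the 64 clustered genes (67.2%) and of 1 of the 12 variants, *H2ax*, compared with 0.362% of all 55450 annotated genes. In the clustered genes, the annotated transcript went on for 3 to 4884 bases past the loop, with a median of 57. The loops of genes with many reads, of *H2ac23* as a near copy of *H2ac24*, of *H2ac18* as a gene whose transcript ends shortly after the loop, and of *H2ax* are given 5′ to 3′, with the bases before the loop in lower case and the loop in capitals. All lie in the 3′ UTR.
H2ac24 (chr13:21833029-21833056, minus strand): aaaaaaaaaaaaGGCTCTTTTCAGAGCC
H2ac23 (chr13:21810886-21810913, plus strand): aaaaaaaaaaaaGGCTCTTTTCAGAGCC
H2ac18 (chr3:96246026-96246047, plus strand): taaaaaGGCTCTTTTCAGAGCC
H1f2 (chr13:23739506-23739527, plus strand): ccaaaaGGCTCTTTTCAGAGCC
H2bc6 (chr13:23585531-23585552, minus strand): accaaaGGCTCTTTTCAGAGCC
H4c9 (chr13:22040966-22040987, minus strand): cttaaaGGCCCTTTTTAGGGCC
H2ax (chr9:44335234-44335255, plus strand): cacaaaGGCCCTTTTAAGGGCC

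The loop letters are the same in the H2A, H2B and H1 genes shown, and other letters pair in *H4c9* and *H2ax*. The genes differ in what follows the loop. The transcript of *H2ac24* ended 3 bases after it, that of *H2ac23* 31 bases and that of *H2ac18* 35 bases. By contrast, 330 bases followed in *H4c9*, 822 in *H2ax*, 840 in *H1f2* and 1861 in *H2bc6*. *H2ac24* and *H2ac23* carry a run of 12 A directly before the loop. A run of this length was found in 7.09% of all annotated genes, and among the histone genes also in *H2ac6* (15 A) and in *H3f3b* (12 A).

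Some of the longer transcripts end after a poly(A) signal, either AATAAA or ATTAAA, which was searched in the last 50 bases. The ends are shown from the signal, in capitals, towards the 3′ end of the transcript, for 3 clustered genes and for the variant *H2ax*. All lie in the 3′ UTR as well.
H1f2 (chr13:23740342-23740367, plus strand): AATAAAaagcgtttagttttcattca
H4c9 (chr13:22040636-22040656, minus strand): ATTAAAagtattctatgctaa
H2bc21 (chr3:96223717-96223738, plus strand): AATAAAgttaccgattagtttc
H2ax (chr9:44336043-44336068, plus strand): ATTAAAggatcgtttggttttgtttt

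A gene was counted under the poly(A) signal if the signal stood at the end of any of its transcripts that had no loop or went on past it by more than 60 bases, and otherwise under the loop if any transcript ended within 60 bases of it. By this order, 21 clustered genes were counted as ending at the loop, 13 had a poly(A) signal at the end, 12 went on past the loop without such a signal, 14 were annotated with little more than the coding part, and 4 had another end. Normalized counts averaged at least 10 over the libraries in 5 of the 21 genes ending at the loop and in 2 of the 14 with the coding part only. The same was true of 9 of the 13 genes with a poly(A) signal, 6 of the 12 going on past the loop and 2 of the 4 with another end. Per 1000 bases of transcript, the median of the genes ending at the loop was 7.56, 4.98, 4.34 and 4.12 normalized counts. The median of the genes with a poly(A) signal was 19.9, 15.3, 19.1 and 19.4, and that of the variants 249.6, 255, 294 and 289. In each library, the order of these 3 medians was the same. The groups also differ in how many 38-base windows of a gene are found in no other selected gene. This share was 0 to 55.6% in the genes ending at the loop. It was 2.08 to 100% in those with a poly(A) signal and 88.4 to 100% in the variants. Whether the order follows the transcript end or the assignment of reads to copies was not tested.

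**Figure D1:**
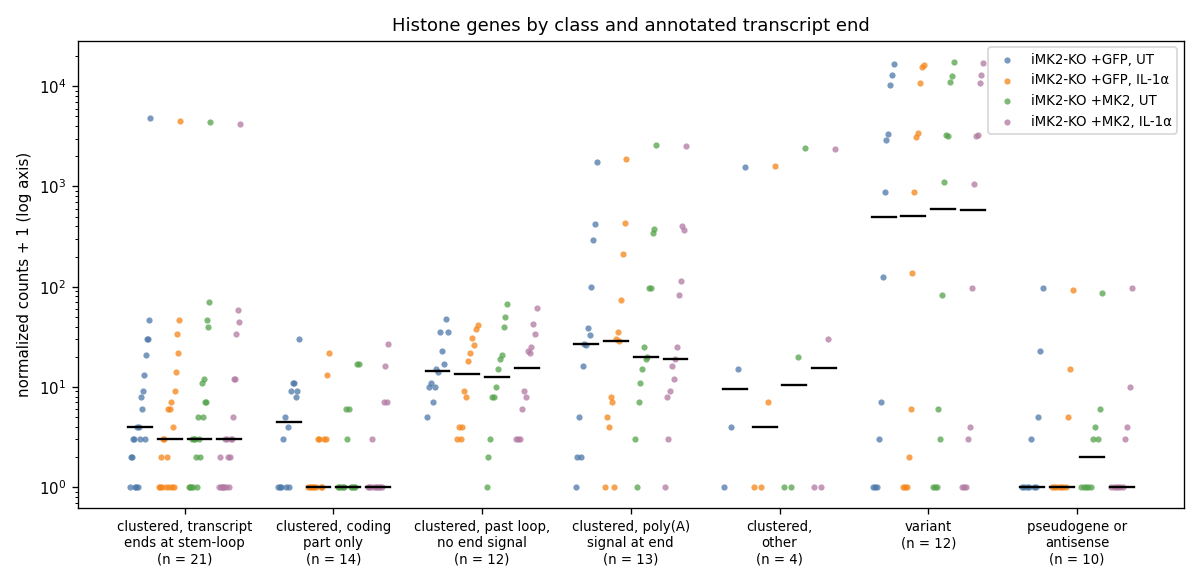
Normalized counts plus 1 (log axis) of the 86 histone genes, by class and annotated transcript end. Each point is a gene in 1 library (colour), each bar the median of the group; among the genes ending at the stem-loop, *H2ac24* stands alone at 4205 to 4866, and the others do not exceed 70.

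The variants made up most of the histone reads. *H2az1*, *H3f3a* and *H3f3b* alone accounted for 70.3, 71.8, 69.0 and 69.0% of the counts of the 76 clustered and variant genes. The clustered genes together accounted for 16.9% of these counts in UT +*GFP* cells (95% exact binomial interval, 16.6 to 17.2) and 15.5% after IL-1α (15.2 to 15.8). In +*MK2* cells they accounted for 18.2% (17.9 to 18.5) and 18.1% (17.8 to 18.4). The intervals of the lines did not overlap, and they cover counting error only. Since the clustered transcripts are shorter, their share was 33.1, 31.0, 32.5 and 32.2% when each gene was divided by the length of its longest protein-coding transcript. On that scale, the +*GFP* libraries were the highest and the lowest.

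The clustered reads came from few genes. Summed over all 64 genes they were 385, 359, 437 and 424 per 1000000 normalized counts of the library, of which *H2ac24* gave 195, 177, 176 and 168. *H1f2* gave 69.6, 73.3, 104 and 101, and *H2bc4* 63.0, 61.9, 96.3 and 94.6. With *H4c9*, these 4 genes held 89.4, 91.5, 89.6 and 89.1% of the clustered counts. All other genes were low. Of the 64 clustered genes, 24 had a mean of at least 10, 5 of at least 100 and 3 of at least 1000, and 5 were at 0 in every library. A value of 0 allows up to 3 reads.

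**Figure D2:**
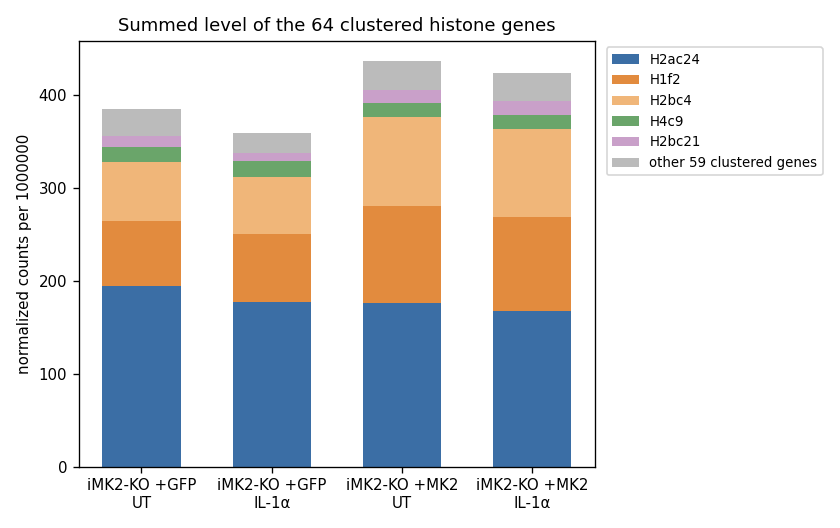
Summed normalized counts per 1000000 of the 64 clustered histone genes in each of the 4 libraries, stacked by gene. *H1f2* and *H2bc4* are smaller in both +*GFP* libraries than in both +*MK2* libraries, whereas *H2ac24* is at 168 to 195 in all.

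Of the 5 highest clustered genes, 3 are known to give polyadenylated mRNA, namely *H1f2*, *H2bc4* and *H2bc21*. Without these and *H2ac24*, the other 60 clustered genes summed to 1147, 1008, 1161 and 1128 normalized counts. This was 2.02, 1.69, 1.94 and 1.92% of the counts of clustered and variant genes. The 20 genes ending at the loop other than *H2ac24* summed to 171, 146, 205 and 171. With *H2ac24*, which ends 3 bases after the loop, they summed to 5037, 4698, 4580 and 4376. The genes ending at the loop were thus low in all 4 libraries apart from *H2ac24*, which was set aside after its value was seen. Which step of the preparation sets these levels was not tested.

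*H2ac24*, an H2A gene, was the exception among the genes ending at the loop, with 4866, 4552, 4375 and 4205 normalized counts. Per 1000 bases of transcript this was 10095, 9444, 9077 and 8724, compared with 15639.9, 15381, 16409 and 15997 for *H2az1*. *H2ac23*, which has the same A run and loop, was at 0, 2, 2 and 0. Only 6.74% of the 38-base windows of *H2ac24* are found in no other selected gene, so that reads of H2A copies can have been assigned to it, and its level as a single gene is uncertain. The 17 clustered H2A genes together stood at 5005, 4683, 4531 and 4367, which does not depend on how reads were divided among them. Windows shared with genes outside the selection were not examined, among them *H2aj*, at 2046, 1810, 1847 and 1814.

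The variants of H2A were led by *H2az1*, which codes for the H2A.Z placed at promoters. It stood at 16719, 16442, 17541 and 17101. *H2az2*, which codes for a close relative of this protein, was far lower, at 123, 135, 81 and 97. *H2ax*, whose protein is phosphorylated at DNA breaks, stood at 2911, 3087, 3254 and 3182, and *Macroh2a1*, whose protein carries a large macro domain, at 3365, 3453, 3209 and 3233. Per 1000 bases of transcript, *H2az1* was highest (15381 to 16409), followed by *H2ax* (2103 to 2351), *Macroh2a1* (1568 to 1688) and *H2az2* (49.6 to 82.7). The ranges of these 4 genes did not overlap. *Macroh2a2* did not exceed 5.

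H3.3, the H3 variant deposited outside replication by the HIRA and DAXX complexes, is made from both *H3f3a* and *H3f3b*. *H3f3a* stood at 10221, 10770, 11039 and 10693. *H3f3b* stood at 13013, 15616, 12588 and 12839, with the IL-1α-treated +*GFP* library above the other libraries. Of the 10 pseudogenes and antisense genes, only copies of these genes had a mean of at least 10, namely *H3f3c* (97, 91, 85 and 95) and *H3f3a-ps2* (22, 14, 5 and 9), and 22.5 and 24.1% of their windows are their own. The 12 clustered H3 genes summed to only 167, 143, 249 and 218. No H2B or H4 variant is among the selected genes, so that only clustered genes were counted for these proteins. They summed to 2120, 1994, 2963 and 2987 for H2B, and to 521, 491, 437 and 437 for H4, of which *H4c9* gave 419, 436, 378 and 367.

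Among the linker histones, *H1f0* codes for H1.0, which accumulates in cells that no longer divide. It stood at 871, 877, 1108 and 1067. The clustered *H1f2* stood at 1739, 1886, 2595 and 2538 and *H1f3* at 34, 40, 66 and 60. *H1f4* stood at 14, 7, 9 and 7. The ratios of *H1f0*, *H1f2* and *H1f3* between the lines are given below. *H1f7*, *H1f9* and *H1f10* were at 0 in every library, and *H1f8* did not exceed 6.

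To compare the lines, the log2 ratio of +*GFP* over +*MK2* cells was calculated after adding 1 to each value, with a 95% interval for counting error. Of the 64 clustered genes, 24 had a mean of at least 10 and were compared, as were 7 of the 12 variants. In UT cells, 3 of the 24 clustered genes were at least 2-fold apart, compared with 8.77% of all 12483 genes with such a mean. After IL-1α, 5 of the 24 were, compared with 9.73% of all genes. None of the 7 variants was at least 2-fold apart in either comparison. A difference beyond counting error was found for 11 clustered genes and 6 variants in UT cells (57.7% of all genes) and for 10 clustered genes and 5 variants after IL-1α (60% of all genes). Of the clustered genes beyond counting error, 4 were higher and 7 lower in UT +*GFP* cells (30.8 and 26.9% of all genes), and 2 were higher and 8 lower after IL-1α (33.7 and 26.3%). As shares of 24 genes, the clustered counts beyond counting error were below these backgrounds in either direction and for higher genes. Those for lower genes were above, as were the clustered counts at least 2-fold apart, which rest on 3 and 5 genes. The variant counts beyond counting error, from the more deeply read genes, were above as shares of 7 genes.

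The median log2 ratio of the clustered genes was -0.08 in UT cells and -0.32 after IL-1α, and that of the variants -0.07 and 0.01. Without *H2ax*, that of the variants was -0.01 and 0.05. The median of all genes was 0.02 and 0.03. The sign and size of the clustered median depended on the genes taken. It was -0.58 and -0.57 over the 9 genes whose mean reached 50, 0.11 and 0.00 over the 59 genes with any value, and 0.06 and 0.00 without the 3 genes known for polyadenylated mRNA. The counting intervals of the single clustered genes extended to either side by a median of 0.80 and 0.77, so that their medians rest on values with large counting error.

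**Figure D3:**
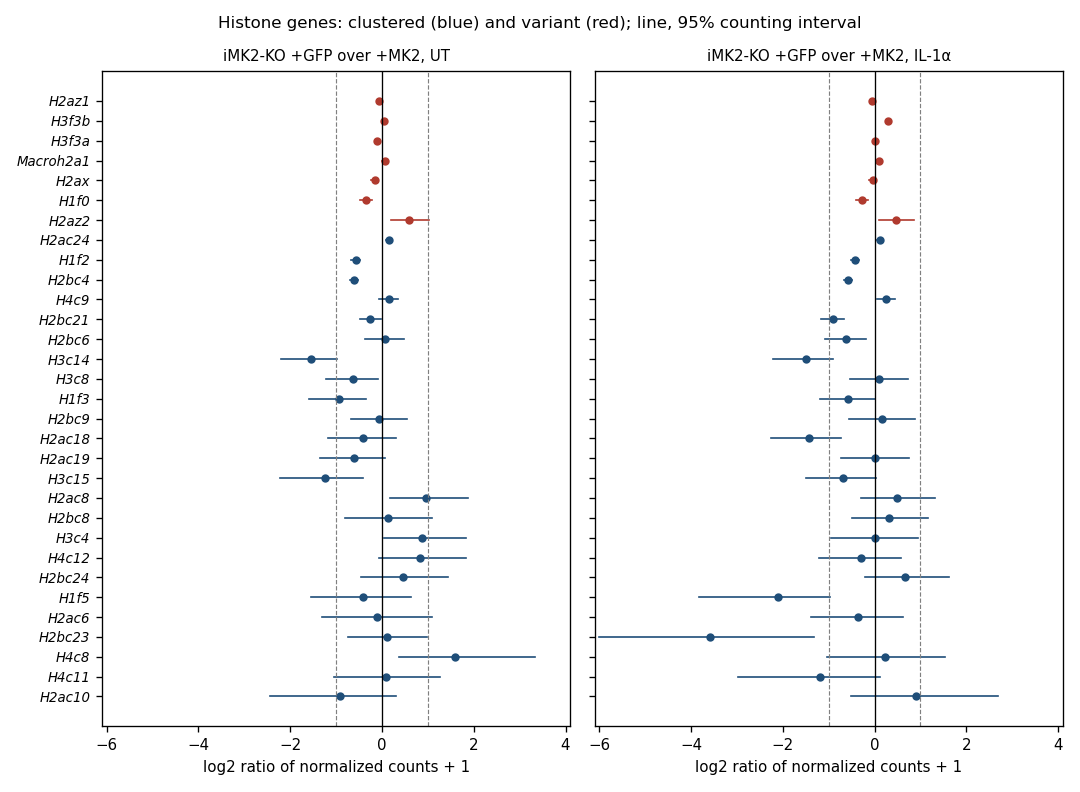
Log2 ratio of +*GFP* over +*MK2* cells (x axis) for the 31 clustered (blue) and variant (red) genes with a mean of at least 10, UT (left) and after IL-1α (right). Lines are 95% counting intervals, those at the left edge run past the axis, and dashed lines mark 2-fold; *H1f2*, *H2bc4*, *H2bc21*, *H3c14* and *H1f0* lie left of 0 in both panels.

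The clustered H1 and H2B genes with many reads were lower in +*GFP* cells. For *H1f2*, the log2 ratio was -0.58 in UT cells (95% counting interval -0.67 to -0.49) and -0.43 after IL-1α (-0.52 to -0.34). *H2bc4* stood at 1574, 1593, 2396 and 2374, with ratios of -0.61 (-0.70 to -0.51) and -0.58 (-0.67 to -0.48). *H2bc21* stood at 288, 211, 344 and 398, with ratios of -0.26 (-0.49 to -0.03) and -0.91 (-1.16 to -0.67). These are the 3 clustered genes known for polyadenylated mRNA. *H2aw*, which is known for the same and lies outside the selection, stood at 115, 157, 172 and 173. Its ratio of -0.58 in UT cells was beyond counting error, and that of -0.14 after IL-1α was not.

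Some clustered genes with low counts were lower in +*GFP* cells as well. *H3c14* stood at 32, 28, 95 and 81, with ratios of -1.54 (-2.20 to -0.98) and -1.50 (-2.21 to -0.90). Of the 31 genes compared, it is the only one that was at least 2-fold apart in both comparisons of the lines. *H3c15*, which lies on chromosome 3 as well, stood at 16, 25, 39 and 41, with -1.23 (-2.22 to -0.41) in UT cells and -0.69 (-1.49 to 0.04) after IL-1α. *H1f5* stood at 14, 6, 19 and 29, with -0.42 (-1.55 to 0.63) and -2.10 (-3.83 to -0.98). *H2ac18* stood at 29, 21, 39 and 58, with -0.42 (-1.17 to 0.30) and -1.42 (-2.26 to -0.72). Its near copy *H2ac19*, which has no window of its own, stood at 29, 33, 45 and 33, and the sum of both, formed after the values were seen, gave -0.53 (-1.04 to -0.03) and -0.74 (-1.27 to -0.25).

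*H1f3* had ratios of -0.94 (-1.60 to -0.34) and -0.57 (-1.20 to 0.02), *H3c8* of -0.63 (-1.21 to -0.08) and 0.10 (-0.53 to 0.73), and *H2bc6* of 0.06 (-0.36 to 0.48) and -0.62 (-1.08 to -0.19). Each of these 3 was thus beyond counting error in 1 of the comparisons.

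Other clustered genes, among them those with the most reads for H2A and H4, were higher in +*GFP* cells in at least 1 comparison. For *H2ac24*, the ratio was 0.15 in UT cells (0.09 to 0.21) and 0.11 after IL-1α (0.05 to 0.18). For *H4c9*, it was 0.15 (-0.06 to 0.35) and 0.25 (0.04 to 0.45), so that only the latter was beyond counting error. *H4c8* stood at 20, 13, 6 and 11, with 1.58 (0.37 to 3.34) in UT cells and 0.22 (-1.03 to 1.54) after IL-1α. *H2ac8* stood at 38, 34, 19 and 24, with 0.96 (0.17 to 1.88) in UT cells and 0.49 (-0.29 to 1.32) after IL-1α, and *H3c4* at 34, 21, 18 and 21, with 0.88 (0.05 to 1.83) and 0.00 (-0.94 to 0.94). Of the 31 genes compared, *H4c8* is the only one that was at least 2-fold higher in +*GFP* cells in either comparison. Scaling libraries to *Gapdh* shifted the ratios of all genes by a median of -0.058 in UT cells and -0.10 after IL-1α. These shifts are larger than the lower interval limits of *H2ac24* (0.054) and *H4c9* (0.045) after IL-1α and of *H3c4* in UT cells (0.053). For these, being beyond counting error thus depends on the scaling.

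Sums over all clustered genes of a protein, which do not depend on the division of reads among those genes, differed in direction between proteins. The log2 ratios in UT cells and after IL-1α were -0.58 and -0.44 for H1, -0.48 and -0.58 for H2B, and -0.57 and -0.60 for H3. They were 0.14 and 0.10 for H2A, and 0.25 and 0.17 for H4. All were beyond counting error except that of H4 after IL-1α (-0.02 to 0.36). That of H2A after IL-1α depends on the scaling, as its lower limit (0.041) is smaller than the shift of -0.10 on scaling to *Gapdh*. The sums of H1, H2A, H2B and H4 are each dominated by 1 or 2 genes. The ratios of H3 rest on *H3c14* and *H3c15*, which summed to 48, 53, 134 and 122, whereas the other 10 clustered H3 genes, grouped after the values were seen, summed to 119, 90, 115 and 96, with ratios of 0.05 (-0.33 to 0.43) and -0.09 (-0.52 to 0.34).

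The variants differed less. *H1f0* was lower in +*GFP* cells, with ratios of -0.35 (-0.48 to -0.22) and -0.28 (-0.41 to -0.15). *H2az2* was higher, with 0.60 (0.19 to 1.03) and 0.47 (0.09 to 0.87). The lower limit of the latter is smaller than the shift of -0.10 on scaling to *Gapdh*. *H2az1* was lower by a small amount, with -0.07 (-0.10 to -0.04) and -0.06 (-0.09 to -0.03). *H3f3b* had a ratio of 0.05 (0.01 to 0.08) in UT cells, which is -0.01 when libraries are scaled to *Gapdh*, and 0.28 (0.25 to 0.32) after IL-1α. The ratios of *H3f3a* (-0.11 and 0.01), *H2ax* (-0.16 and -0.04) and *Macroh2a1* (0.07 and 0.09) were beyond counting error in 1 comparison each, and scaling to *Gapdh* turned the latter of *Macroh2a1* to -0.0071.

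IL-1α was compared with UT within each line, at a single time of 1 h. In +*GFP* cells, 3 of the 24 clustered genes were at least 2-fold apart, compared with 3.85% of all genes, and in +*MK2* cells 2 of the 24, compared with 1.92%. None of the 7 variants was. As shares of the clustered genes these counts were above the backgrounds, but they rest on 4 genes, all with means below 20 and lower after IL-1α. Beyond counting error were 4 clustered genes and 3 variants in +*GFP* cells (32.3% of all genes), and 2 clustered genes and 2 variants in +*MK2* cells (19.6% of all genes). Median log2 ratios in +*GFP* and +*MK2* cells were -0.13 and 0.04 for the clustered genes, 0.08 and -0.03 for the variants and 0.01 and 0.01 for all genes.

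*H3f3b* was the variant with the largest difference beyond counting error after IL-1α. Its log2 ratio was 0.26 in +*GFP* cells (0.23 to 0.30) and 0.03 in +*MK2* cells (-0.01 to 0.06). *H3f3a*, which codes for the same protein, had ratios of 0.08 (0.04 to 0.11) and -0.05 (-0.08 to -0.01). *H2ax* had a ratio of 0.08 (0.01 to 0.16) in +*GFP* cells and -0.03 (-0.10 to 0.04) in +*MK2* cells. The IL-1α values of +*GFP* cells were thus above UT for these 3 variants, and whether the lines differ in this was not tested. Scaling to library totals or to *Gapdh* shifted the ratios of all genes in +*GFP* cells by a median of -0.043 and -0.045. These shifts are larger than the lower interval limits of *H3f3a* (0.036) and *H2ax* (0.011), but not that of *H3f3b*. For *H3f3a* and *H2ax*, being beyond counting error thus depends on the scaling. *H2az1* had ratios of -0.02 (-0.06 to 0.01) and -0.04 (-0.07 to -0.01). *H1f0*, *H2az2* and *Macroh2a1* were not beyond counting error in either line.

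**Figure D4:**
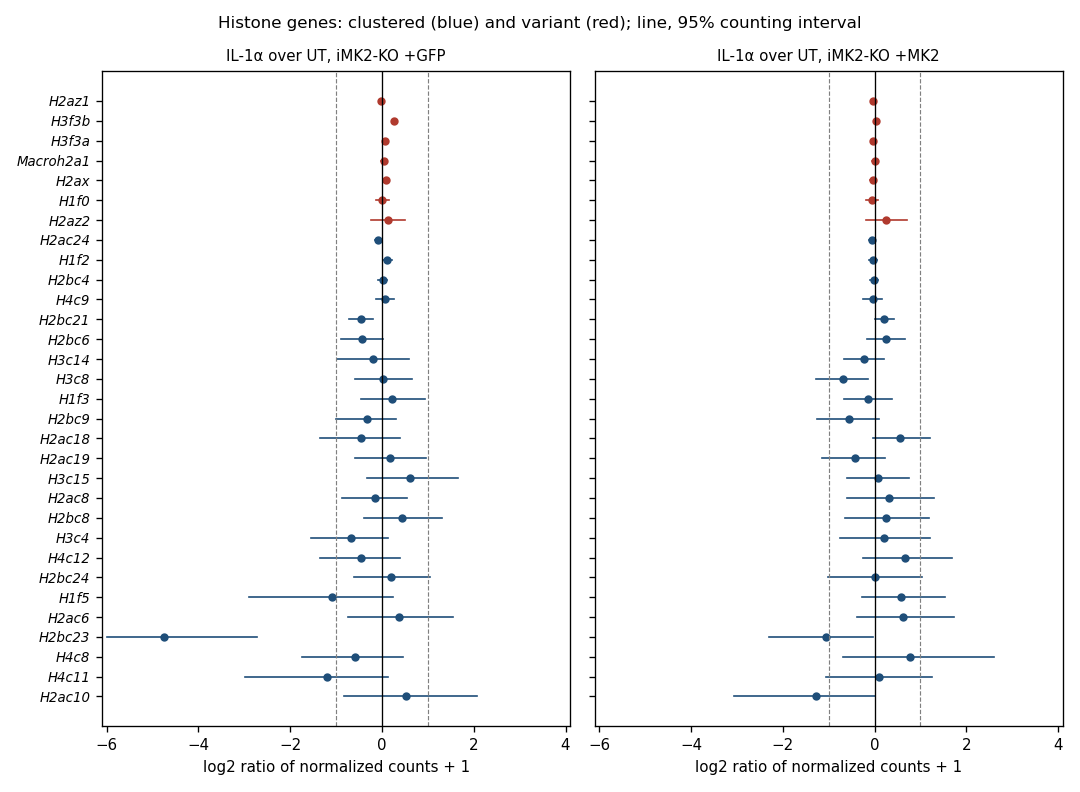
Log2 ratio of IL-1α over UT (x axis) in +*GFP* (left) and +*MK2* cells (right) for the 31 clustered (blue) and variant (red) genes with a mean of at least 10. Lines are 95% counting intervals, those at the left edge run past the axis, and dashed lines mark 2-fold. Genes with a mean of at least 50 lie between the dashed lines, and *H2bc23*, at 26 and 0 in the +*GFP* libraries, lies farthest to the left.

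Of the clustered genes, *H2bc23* stood at 26, 0, 24 and 11. With the value of 0 after IL-1α in +*GFP* cells, its log2 ratio over UT was -4.75, with a counting interval that ends at -2.71. Over IL-1α-treated +*MK2* cells, its ratio was -3.58, with an interval that ends at -1.33. Only 2.08% of its windows are its own, and its near copy *H2bc24* stood at 25, 29, 18 and 18. The sum of both, formed after the values were seen, gave a ratio of -0.79 (-1.52 to -0.13) in +*GFP* cells and -0.52 (-1.27 to 0.18) in +*MK2* cells. The other genes past 2-fold were not beyond counting error, namely *H1f5* and *H4c11* (15, 6, 14 and 15), with -1.10 (-2.89 to 0.25) and -1.19 (-2.98 to 0.13), in +*GFP* cells and *H2ac10* (8, 12, 16 and 6), with -1.28 (-3.06 to 0.01), in +*MK2* cells. *H4c11* was also past 2-fold between the lines after IL-1α, with the same ratio of -1.19.

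Of the clustered genes with more reads, *H2ac24*, *H1f2* and *H2bc4* had small ratios after IL-1α. For *H2ac24*, it was -0.10 in +*GFP* cells (-0.15 to -0.04) and -0.06 in +*MK2* cells (-0.12 to 0.00). For *H1f2*, it was 0.12 (0.02 to 0.21) and -0.03 (-0.11 to 0.05), and for *H2bc4* 0.02 (-0.08 to 0.12) and -0.01 (-0.10 to 0.07). The 0.12 of *H1f2* depends on the scaling, as its lower limit of 0.022 is smaller than the shifts of -0.043 and -0.045 given above. *H2bc21* had -0.45 (-0.71 to -0.19) and 0.21 (0.00 to 0.42). *H2bc6*, at 99, 73, 95 and 113, had -0.43 (-0.90 to 0.01) and 0.25 (-0.16 to 0.66). *H3c8*, at 45, 46, 70 and 43, had 0.03 (-0.59 to 0.66) and -0.69 (-1.29 to -0.13). In these 6 genes, no difference reached 2-fold. *H4c9* (0.06 and -0.04) and *H3c14* (-0.19 and -0.23) were not beyond counting error in either line.

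Genes that act on histone mRNA and histones were compared beside them. Of 16 genes for histone mRNA synthesis, processing and decay, none was at least 2-fold apart in any of the 4 comparisons. *Slbp*, whose protein binds the stem-loop, stood at 1561, 1718, 1503 and 1495, and *Npat*, a co-activator of the clustered genes, at 1250, 1282, 1209 and 1184. The median log2 ratio of the 16 genes was 0.05 and 0.11 between the lines (UT, IL-1α) and 0.04 and 0.01 after IL-1α (+*GFP*, +*MK2*). None of the 23 histone chaperone genes was 2-fold apart either. *Chaf1a*, which codes for a subunit of the replication-coupled chaperone CAF-1, stood at 2783, 3053, 2834 and 2933, and *Hira*, of the H3.3 chaperone, at 2560, 2655, 2663 and 2444. The same held for 18 S-phase genes, with medians of -0.06 and 0.03 between the lines and 0.05 and -0.02 after IL-1α. It also held for 8 mitotic genes, with medians of -0.15 and -0.07, and of 0.06 and -0.0007. Single S-phase genes differed between the lines. Beyond counting error, 4 were higher and 7 lower in UT +*GFP* cells, and 8 were higher and 6 lower after IL-1α. *Ccne1* had the ratios farthest from 0, at -0.66 and -0.62. The share of cells in S phase was not measured. Fewer cells making a transcript and less of it per cell cannot be told apart in these bulk libraries.

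Other RNAs that are made without a poly(A) tail served as a further look at the RNA selection. The list of such RNAs had 21 rows in the table, of which 7 had a mean of at least 10. Their summed normalized counts were 1067, 255, 200 and 165, so that UT +*GFP* cells stood above the other libraries. *Rn7sk*, the RNA of the 7SK particle, stood at 132, 25, 8 and 0, and *Rmrp*, the RNA of RNase MRP, at 66, 3, 2 and 1 in the row with more counts. *Rpph1*, the RNA of RNase P, stood at 76, 30, 32 and 29. *Rn7s1* and *Rn7s2*, copies of the signal recognition particle RNA, stood at 507, 100, 0 and 0 and at 148, 0, 88 and 71. *Snora73a*, a small nucleolar RNA, stood at 23, 21, 8 and 15, and *Snora73b* at 60, 56, 37 and 37. In these 2 small nucleolar RNAs, UT and IL-1α-treated +*GFP* cells were close, so that the excess of the UT library was not shared by all 7 RNAs.

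**Figure D5:**
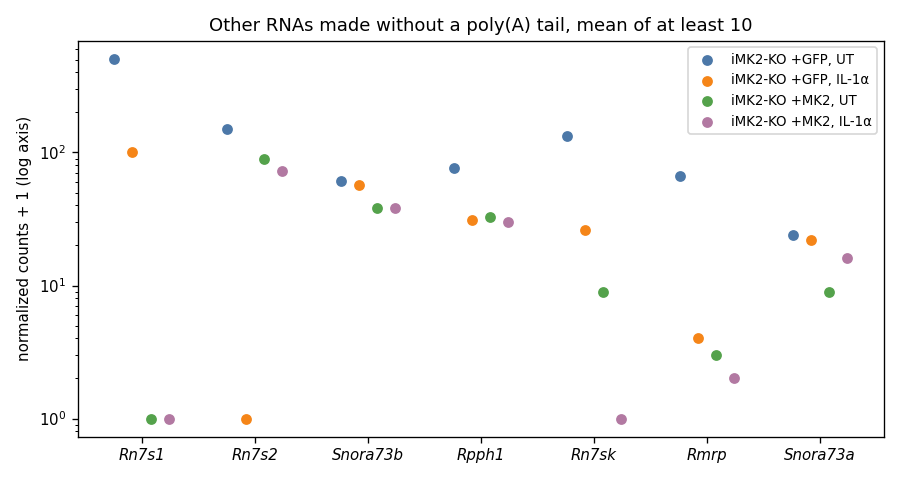
Normalized counts plus 1 (log axis) of 7 RNAs made without a poly(A) tail, by library (colour). UT +*GFP* cells (blue) are highest for each RNA, from 23 to 507 normalized counts, and points at the bottom are values of 0.

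The clustered histone genes were set beside these values. *H2ac24* was highest in the UT +*GFP* library too, at 4866 against 4205 to 4552 in the others, and so were all 17 clustered H2A genes together, at 5005 against 4367 to 4683. The 20 genes ending at the loop other than *H2ac24* were at 171 in the UT +*GFP* library, within the range of 146 to 205 of the other libraries. The 14 genes annotated with the coding part only were at 81 in this library and at 41, 44 and 55 in the others. Whether the excess of short RNAs in this library is related to any histone value was not tested. The short RNAs listed summed to 255 in the IL-1α-treated +*GFP* library and to 200 and 165 in the +*MK2* libraries. *H1f2*, *H2bc4*, *H2bc21*, *H3c14* and *H1f0*, chosen by their values, were lower in both +*GFP* libraries than in both +*MK2* libraries. Whether this is related to the short RNAs was not tested.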

How the data were processed

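The authors deposited 1 table of 55356 genes, whose unit is treated here as a score, since the values are gene counts that were scaled by library and then rounded. The authors' processing notes in the labels name DESeq2 as a tool and GRCm38 as a build, with no version or role. The column names point to salmon, and the counting and annotation are not given in the sources used here. Gene positions in the table differ from GRCm38 for all but 1494 of the 52080 genes matched to GENCODE M21, so that positions and sequences were taken from M21 by identifier. The comparisons had been planned for counts. As the values were already normalized, they were used as deposited with no count model. The true depth is unknown, and 1 normalized count was taken as 1 read.

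The log2 ratio of 2 libraries used a pseudocount of 1, with the exact Clopper-Pearson 95% interval of their shares. Beyond counting error means that this interval excludes 0. Intervals and the limit of 3 counts for a value of 0 cover counting error only. Counts of genes used a mean of at least 10 over the 4 libraries and a 2-fold difference. Genes annotated as pseudogenes or antisense were taken out of both classes after their annotation was seen. Lengths are those of the longest protein-coding transcript. The calculations were run in Python 3.11.15 with numpy 2.4.6, pandas 2.3.3 and scipy 1.17.1, and were tested on simulated data.

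The members, lists and tests were chosen with earlier results of these data known. Named were all variants with a mean of at least 10, the 8 clustered genes with the highest mean, clustered genes of at least that mean that were 2-fold apart in any comparison, clustered genes known for polyadenylated mRNA, and from the other lists those past 2-fold and *Slbp*, *Npat*, *Chaf1a*, *Hira*, *Rn7sk*, *Rmrp* and *Rpph1*. *H1f3*, *H1f4*, *H2ac8*, *H3c4*, *Snora73b*, *H2ac19*, *H2ac23*, *H2ac6*, *H2bc24*, *H2aj*, *H2aw*, *Cenpa*, *Ccne1*, 2 pseudogenes and genes at or near 0 were named after their values were seen. Alternatives were other pseudocounts, minimum means, scalings, class lists and read depths.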

Additional observations from a re-analysis of the deposited data

Results flagged for a closer look

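*H3f3a*, which codes for H3.3, was above UT after IL-1α in +*GFP* cells (log2 ratio 0.075) and below UT in +*MK2* cells (-0.046), each beyond counting error. The difference in +*GFP* cells depends on the scaling. Its lower interval limit of 0.036 is smaller than the median shifts of -0.043 and -0.045 on scaling to library totals or *Gapdh*. *H3c11*, a clustered H3 gene with 10, 2, 0 and 6 normalized counts, differed in the opposite way, with -1.87 in +*GFP* cells and 2.81 in +*MK2* cells. The latter is set against a value of 0, and its counting interval starts at 0.24. Its mean of 4.5 is below the minimum used for the comparisons. Both were noted since the lines differed in direction, and the difference between the lines was not tested.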

How the results depend on the processing

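No paired analysis was possible because each condition has 1 library, and for the same reason no library could be left out. The median of the clustered genes rests on few reads per gene and has no range that a setting could be held to. Beside the values given for the lines, for IL-1α (+*GFP*, +*MK2*) it was 0.02 and -0.04 with a mean of at least 50, -0.34 and 0.00 over genes with any value, and -0.16 and 0.07 without *H1f2*, *H2bc4* and *H2bc21*, against -0.13 and 0.04. Sums follow in the order UT and IL-1α in +*GFP*, then in +*MK2* cells. The clustered share of histone counts was 11.3, 9.94, 10.2 and 9.96% without *H1f2*, *H2bc4* and *H2bc21*, so that the lines no longer differed in 1 direction. It was 9.13, 8.53, 11.7 and 11.8% without *H2ac24* and 33.1, 31.0, 32.5 and 32.2% per 1000 bases of transcript, both chosen after seeing the data, and 17.2% in the UT +*GFP* library per 1000 coding bases. The clustered sum per 1000000 counts was 411, 383, 468 and 455 when the 10 most abundant genes were left out of the total. Without *H2ac24* it was 190.1, 183, 261 and 257, and also without the 3 genes above 45.9, 39.2, 46.6 and 45.0, both chosen after seeing the data.

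The number of genes at least 2-fold apart, which was 3, 5, 3 and 2 for the lines (UT, IL-1α) and for IL-1α (+*GFP*, +*MK2*), was 1, 1, 0 and 0 with a mean of at least 50 and 28, 22, 26 and 22 with no minimum, as set by the number of genes with few reads. With a pseudocount of 5, it was 1 and 0 for IL-1α. The 4 genes beyond counting error for IL-1α in +*MK2* cells became 2 with 0.7 and 8 with 1.3 reads per normalized count. Scaled to *Gapdh*, which moved the median of all genes by up to -0.10, the median of the variants between the lines after IL-1α was -0.092, *H3f3b* between UT lines was -0.011 and *Macroh2a1* after IL-1α -0.0071, both turned in sign. Of 440 recomputed ratios of named genes, no other changed sign where it had been beyond counting error. Reads shared among copies and an unknown depth limit all values of single clustered genes, and variation between cultures is not covered.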
